A study of Trichoderma reesei with 18 samples.

Results

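Trichoderma reesei is a filamentous fungus that degrades plant biomass and secretes cellulases, and light alters much of its metabolism. The comparison described here set 2 deletion mutants of this fungus against each other in constant darkness: Δ80186, which lacks the gene TR80186, and Δ21168, which lacks TR21168. Its members were all gene rows of the count table in the 3 dark libraries of Δ80186 and the 3 dark libraries of Δ21168, 6 of the 18 libraries of the series. Both strains were made in the wild type QM6a (genotype WT), and mycelium of each was grown for 96 h in minimal medium on cellulose. RNA was sequenced with a strand-specific kit after removal of ribosomal RNA. The same mutants in constant light (3 libraries each), and WT in darkness and in light (3 libraries each), gave values set beside the dark comparison, and entered the shared model that set the filter, scaling and spread of the dark test. The labels state neither the number of transformants per mutant nor whether replicates were separate cultures. The p-values therefore measure the spread between libraries, pooled over all groups of the shared model, which may be technical.

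MAP kinase kinases are the middle enzymes of 3-tiered relays: a kinase above activates them, and they phosphorylate the MAP kinase below. The series title assigns the deleted genes to the HOG and the pheromone pathway. In yeast, the HOG relay runs through Pbs2 to Hog1 and answers osmotic stress, and the pheromone relay runs through Ste7 to Fus3 and Kss1 and drives mating. In filamentous fungi relatives of these relays also act in stress resistance, hyphal fusion and sexual development. RefSeq gives the symbol mkk1 to TR21168 and no symbol to TR80186.

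The table identifies genes by 10876 codes, each with a letter for a group, a running number and W or C at its end, plus 3 rows named after the mating type locus. Neither the files nor RefSeq pair these codes with gene names, so functions are not given below and few codes are named. The 3 named rows, mat1-1-1, mat1-1-2 and mat1-1-3, had 0 reads in each of the 6 dark mutant libraries. Over all 18 libraries mat1-1-1 had 5 reads, all in light libraries of WT and Δ21168, while mat1-1-2 and mat1-1-3 had 0. QM6a carries the other mating type (MAT1-2), so these rows stand for genes that this strain lacks.

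Library totals were 13953910 to 15541825 counts for Δ80186 and 7945697 to 12415791 for Δ21168. The library numbers in the labels form separate series for these strains, with WT in the series of Δ80186, so strain and library series cannot be told apart in any value below that sets Δ21168 against another strain. The spread between libraries was wider in Δ21168, where edgeR's common biological coefficient of variation was 0.234, than in Δ80186, where it was 0.108. The shared model gave each gene 1 spread for all groups, so its dark p-values can understate the spread of Δ21168. Replicate 1 of Δ21168 stood apart, with rank correlations of 0.976 and 0.971 with the other replicates of its group, which correlated at 0.987 with each other. The Δ80186 libraries correlated at 0.991 to 0.997. Counts of genes, the values of the gene sets called and the fold changes of the genes named in darkness are therefore also given without Δ21168 replicate 1.

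Each mutant lacked reads of a single abundant code, which served as a check of the labels. TrD0367C had 1, 1 and 2 reads in the dark libraries of Δ80186 and 968, 751 and 1108 reads in those of Δ21168, a pooled ratio of 1030 (95% exact counting interval 403 to 3790). TrE0746W had 1104, 1347 and 1102 reads in Δ80186 and 0 in each Δ21168 library, at least 811-fold higher taking 3 reads in the whole group as the floor (481 without Δ21168 replicate 3). The WT libraries in darkness had 1588 to 2054 reads of TrD0367C and 1151 to 1291 of TrE0746W. Both codes were picked by this loss of reads, which therefore is no independent proof that they are the deleted genes. Counting intervals and floors cover counting error only.

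The mutants differed from each other in a large part of the dark transcriptome, mostly by small steps. Of 9079 genes tested, 4010 were called at an adjusted p under 0.05 (edgeR's quasi-likelihood test with Benjamini-Hochberg adjustment), which is 44.2%. In Δ80186 2101 were higher (23.1%) and 1909 lower (21%). The median log2 fold change of Δ80186 over Δ21168 was 0.60 among the called higher genes and −0.65 among the called lower ones, and 0.01 over all genes tested. At least 2-fold differences were called for 1207 genes (13.3%), 585 higher (6.44%) and 622 lower (6.85%) in Δ80186. Without Δ21168 replicate 1, 4115 genes (45.3%) were called, 2197 higher and 1918 lower, and 3570 of the 4010 calls were kept in the same direction with 0 in the opposite one. The counts at 2-fold were then 614 higher and 724 lower. With the 6 dark mutant libraries alone, where no other group entered the spread, 2974 genes were called, 1612 higher and 1362 lower.

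At 2-fold the numbers higher and lower were close, and which was larger depended on the fit. More genes were lower than higher in Δ80186 in 10 of 14 alternatives and fewer in 4, with 580 higher and 494 lower without Δ21168 replicate 3, 594 and 558 without Δ80186 replicate 3, 527 and 467 with the 6 dark mutant libraries alone, and 504 and 496 with limma voom. Larger differences were more often lower in Δ80186. Differences of at least 4-fold were called for 168 genes higher and 250 lower in Δ80186, those of at least 8-fold for 64 and 113, and those of at least 32-fold for 11 and 27. At each of these sizes the lower genes were the more numerous in 14 of 14 alternatives, which reuse the same libraries. At 4-fold the alternatives gave 149 to 201 higher and 182 to 312 lower. The excess was smaller with the 6 dark mutant libraries alone, with 152 and 182 at 4-fold and 59 and 90 at 8-fold. With limma voom, which had a variance per group, it was also smaller, with 149 and 189, and 56 and 81. The part of the wider spread of Δ21168 in this excess was not tested. Without Δ21168 replicate 1 the counts at 4-fold, 8-fold and 32-fold were 181 and 299, 73 and 146, and 14 and 36. Of the genes with at least 32-fold differences, 3 of the 11 reached 5 CPM in Δ80186 and 16 of the 27 reached it in Δ21168. CPM are read counts scaled to library size, here with edgeR's TMM factors, and not to gene length. The 3 values of each group did not overlap for 572 of the 585 genes at least 2-fold higher (97.8%) and for 504 of the 622 lower (81%). Over all genes tested the groups did not overlap for 49.1%, with Δ80186 above for 27.4% and below for 21.7%. When Δ21168 replicate 1 was left out, the groups, then 3 against 2 libraries, did not overlap for 99.2% of the 614 higher genes, 98.2% of the 724 lower ones and 63.6% of all tested. The plot of fold change against level shows both arms.

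**Figure D1:**
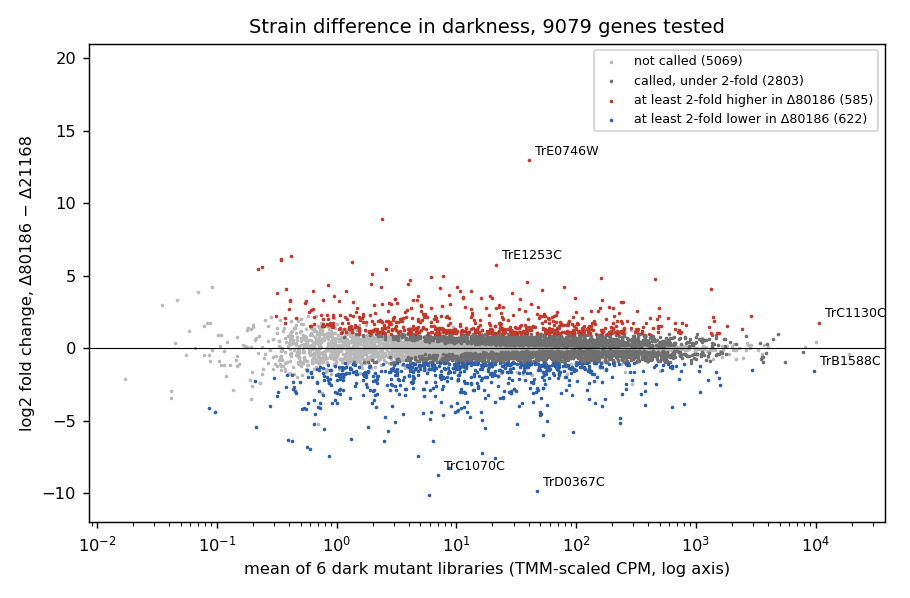
Log2 fold change of Δ80186 over Δ21168 in darkness (vertical axis) against the mean level over the 6 dark mutant libraries (horizontal axis, TMM-scaled CPM, log axis); each point is 1 of 9079 genes, coloured by call. The 585 red genes lie at or above a log2 value of 1 and the 622 blue genes at or below −1, and 113 blue genes against 64 red ones lie beyond 8-fold. TrE0746W at the top has 0 reads in Δ21168, so its height is no measure of its fold.

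The share of genes called rose with level, while large differences were most common among weakly read genes. Among the 525 genes under 1 CPM 20.6% were called, among the 4515 genes from 10 to 100 CPM 44%, and among the 120 genes of at least 1000 CPM 60.8%. Differences of at least 2-fold were called for 24% of the 1787 genes from 1 to 10 CPM, 10.3% of those from 10 to 100 CPM, 8.63% of the 2132 from 100 to 1000 CPM, and 16.7% of the 120 above. Under 1 CPM the share at 2-fold was 20.6%, the same as at any fold. With few reads small differences are hard to call and folds are less precise, so the shares also depend on depth. Without Δ21168 replicate 1 the shares called were 21.8% under 1 CPM, 44.9% from 10 to 100 CPM, 58.5% from 100 to 1000 CPM and 57.1% above, and those at 2-fold 25.4%, 11.5%, 10.7% and 16% from 1 CPM upward. Of the 20 codes with the highest CPM in each strain, 15 were shared. Among the 25 codes in either list 17 were called, 3 of them higher in Δ80186 and 2 lower by 2-fold or more. With Δ21168 replicate 1 left out, the lists shared 13 codes, and of the 27 in either 19 were called, 3 higher and 4 lower by 2-fold or more. The 20 codes took 12.1% of the counts in Δ80186 and 12.4% in Δ21168.

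TrE1253C had the largest fold higher in Δ80186 among genes with at least 5 CPM there and groups that did not overlap, leaving out the codes of the label check. It had 49.9, 42.9 and 33.5 CPM in the Δ80186 libraries and 0.819, 0.876 and 0.658 CPM in those of Δ21168, where it rested on 7 to 8 reads per library. All 3 Δ80186 libraries were far above all 3 of Δ21168, with a log2 fold change of 5.75 ± 0.24 (SE, adjusted p = 1.1e-11). In WT it had 184, 148 and 164 CPM, so both mutants were below WT. Its log2 difference from WT was −1.97 ± 0.14 (SE, adjusted p = 2.1e-08) in Δ80186 and −7.73 ± 0.23 (SE, adjusted p = 1.1e-13) in Δ21168. These differences share libraries with the direct one.

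TrC1130C had the highest CPM among the genes at least 2-fold higher in Δ80186. Its values were 15710.5, 17364 and 16438 CPM in Δ80186 and 6573, 4685 and 3296 CPM in Δ21168. The lowest Δ80186 library stood well above the highest of Δ21168, which was replicate 1. The log2 fold change was 1.77 ± 0.21 (SE, adjusted p = 9.8e-06). In WT the gene was at 12178, 11753 and 14871 CPM. Against WT it was lower in Δ21168 (log2 −1.41 ± 0.20 SE, adjusted p = 5.4e-05), while its log2 difference in Δ80186 was 0.35 ± 0.20 (SE, adjusted p = 0.2).

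In the other direction, TrC1070C had the largest fold by the same rule. It had 0, 1 and 0 reads in the Δ80186 libraries and 144, 80 and 214 reads in those of Δ21168, or 14.7, 10.0 and 17.6 CPM. The pooled ratio of Δ21168 to Δ80186 was 640 (95% exact counting interval 114 to 25300; adjusted p = 1.7e-08 in edgeR). Without Δ80186 replicate 2, which held the read, the gene was at least 137-fold lower in Δ80186. WT had 18, 64 and 53 reads, between the mutants, so that the gene was near the floor in Δ80186 and above WT in Δ21168 (log2 2.09 ± 0.34 SE, adjusted p = 8.1e-05).

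TrB1588C had the highest CPM among genes at least 2-fold lower in Δ80186. It had 3880, 4725 and 6209 CPM in Δ80186 and 18050, 14233 and 11478 CPM in Δ21168. The groups did not overlap, though the libraries within each differed by up to 1.60-fold in Δ80186 and 1.57-fold in Δ21168 (log2 −1.56 ± 0.42 SE, adjusted p = 0.0094). Both mutants were far above WT, which had 445, 347 and 370 CPM. The log2 difference from WT was 3.67 ± 0.46 (SE, adjusted p = 5.1e-05) in Δ80186 and 5.23 ± 0.49 (SE, adjusted p = 2e-06) in Δ21168. With Δ21168 replicate 1 left out, the log2 fold change of Δ80186 over Δ21168 was 5.81 for TrE1253C, 2.05 for TrC1130C, −8.73 for TrC1070C and −1.38 for TrB1588C (edgeR adjusted p = 1e-09, 7.3e-07, 5.7e-08 and 0.031). Fitted on the 6 dark mutant libraries alone, these genes had edgeR adjusted p = 2.8e-05, 0.0019, 8.9e-05 and 0.0024. These p-values were larger than in the shared model for all but TrB1588C.

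Codes without any read in all 3 dark libraries of 1 mutant and with at least 10 reads in each of the other were rare. There were 3 without reads in Δ21168 and 0 without reads in Δ80186. The libraries of Δ21168 were the shallower, which makes 0 reads there more likely. With any read in the other mutant, 225 codes had no read in Δ21168 and 221 had none in Δ80186. Besides TrE0746W these were TrG0922W and TrF0045W, named after their values were seen. TrG0922W had 95, 74 and 43 reads in Δ80186 and was at least 48.4-fold higher there (28.7 without Δ21168 replicate 3), with a mean of 0.119 CPM in WT. TrF0045W had 11, 12 and 13 reads in Δ80186 and was at least 8.21-fold higher (4.87 without Δ21168 replicate 3), with a mean of 2.85 CPM in WT.

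**Figure D2:**
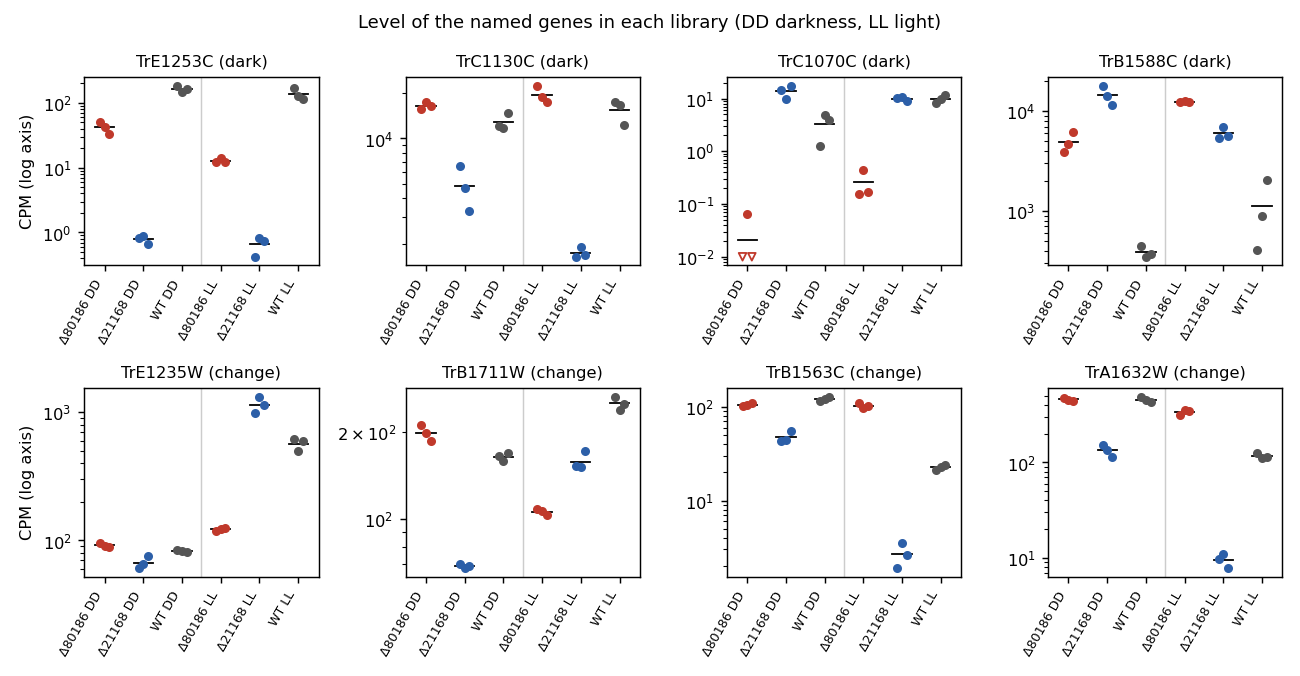
Level of the 8 genes named by rule in each of the 18 libraries (vertical axis, TMM-scaled CPM, log axis); points are libraries, black lines are means of 3, and open triangles at the bottom are libraries with 0 reads. In the upper row the dark mutant groups are apart for each gene; in the lower row the distance between the mutants differs between darkness (left of the grey line) and light (right of it).

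By median log2 difference WT lay between the mutants for both sets, nearer to Δ80186 for the higher genes and about midway for the lower ones. The 585 genes at least 2-fold higher in Δ80186 had a median level of 23.7 CPM in Δ80186, 7.11 CPM in Δ21168 and 15.99 CPM in WT. Their median log2 difference from WT was 0.27 in Δ80186 (quartiles −0.25 and 1.19) and −1.19 in Δ21168 (quartiles −1.95 and −0.38). The 622 lower genes had median levels of 4.42, 19.0 and 9.68 CPM, and median log2 differences from WT of −0.82 in Δ80186 and 0.89 in Δ21168. Over all genes tested these medians were −0.01 and 0.01. Leaving out Δ21168 replicate 1 gave medians of 0.25 and −1.21 for the 614 higher genes and −0.82 and 0.94 for the 724 lower ones. The sets were chosen on the libraries of the mutants, so a place of WT between them is tied to that choice. The place of WT for the lower genes also depended on the set. For those called in the 6 dark mutant libraries alone, the share of counts in WT lay nearer to Δ80186, as given below. WT shares its library number series with Δ80186, so nearness of WT to Δ80186 in either set and the library series cannot be told apart.

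The sets also took different parts of each library. The 585 higher genes took 10.5%, 10.2% and 9.11% of all counts in the dark Δ80186 libraries and 3.57%, 3.30% and 2.84% in those of Δ21168, a difference that their choice fixes. WT libraries, which entered the model but not the contrast that chose the genes, gave 10.8%, 9.56% and 10.1%. The 622 lower genes took 2.48%, 2.38% and 2.49% in Δ80186 and 6.34%, 8.67% and 9.27% in Δ21168, where replicate 1 was the lowest, and 3.46% to 5.16% in WT. In light, whose libraries likewise entered the model but not the contrast, the higher genes took 8.85% ± 0.38 (SD, n = 3) of counts in Δ80186 and 2.61% ± 0.03 (SD, n = 3) in Δ21168. The lower genes took 4.77% ± 0.20 (SD, n = 3) and 13.5% ± 0.03 (SD, n = 3) there, so the dark order of the mutants in these shares was seen in light as well. The shares are sums of counts, in which abundant genes weigh most, and do not show the order of each gene. When the genes were called in the 6 dark mutant libraries alone, with the filter of all libraries, the 527 higher genes took 9.46% ± 0.62 in dark WT, and 8.52% ± 0.37 and 2.51% ± 0.03 in light Δ80186 and Δ21168 (SD, n = 3). The 467 lower genes took 1.92% ± 0.16 in dark Δ80186, 6.01% ± 0.19 in dark Δ21168 and 2.53% ± 0.30 in dark WT (SD, n = 3). For this set WT lay between the mutants but nearer to Δ80186. In light the same genes took 4.16% ± 0.14 in Δ80186 and 11.8% ± 0.56 in Δ21168 (SD, n = 3). Called without Δ21168 replicate 1, the 614 higher genes took 10.1% ± 0.67 of counts in dark WT and the 724 lower genes 5.43% ± 1.13 (SD, n = 3).

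**Figure D3:**
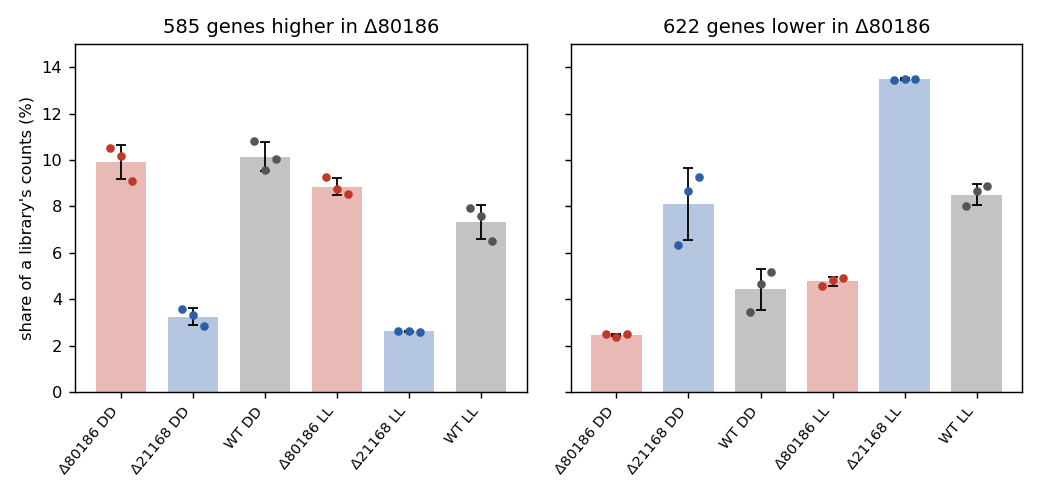
Share of each library's counts (vertical axis, %) taken by the 585 genes at least 2-fold higher (left) and the 622 at least 2-fold lower (right) in Δ80186 in darkness; bars are means of 3 libraries, error bars are SD, points are libraries, DD is darkness and LL is light. The higher genes take 9.93% of counts in dark Δ80186 and 3.24% in dark Δ21168, and the lower genes 2.45% and 8.09%.

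The strain difference was then read in the light libraries of the same mutants, which enter no dark contrast but belong to the same library series. In light 5679 genes were called (62.6%), with 1032 (11.4%) higher by 2-fold or more in Δ80186 and 1118 (12.3%) lower by as much. Of the 585 genes at least 2-fold higher in darkness, 307 (52.5%) were at least 2-fold higher in light too, and 44 (7.52%) were at least 2-fold lower. Of the 622 at least 2-fold lower in darkness, 307 (49.4%) were at least 2-fold lower in light and 48 (7.72%) at least 2-fold higher. The genes shared in the same direction made up 29.7% of the light genes at least 2-fold higher and 27.5% of those lower. In light 164 of the 585 (28%) and 208 of the 622 genes (33.4%) were not called at any fold, against 37.4% of all genes tested. Without Δ21168 dark replicate 1, 54.6% of 614 higher and 48.8% of 724 lower genes kept their direction at 2-fold in light. Across the 9079 genes, which are not independent replicates, the log2 differences in darkness and in light correlated with a Pearson's r of 0.465 and a Spearman's rho of 0.435 (0.462 and 0.436 without Δ21168 dark replicate 1).

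**Figure D4:**
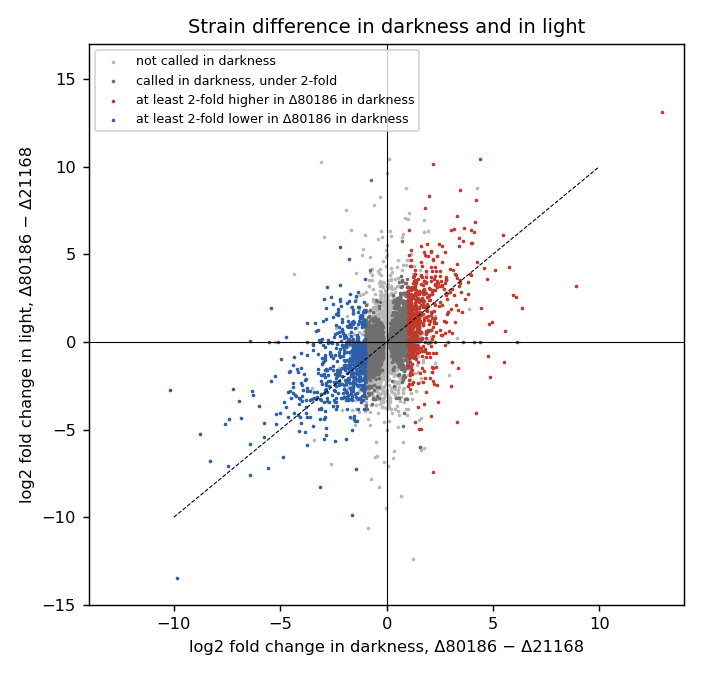
Log2 fold change of Δ80186 over Δ21168 in light (vertical axis) against that in darkness (horizontal axis); each point is 1 of 9079 genes, coloured by its call in darkness, and the dashed line marks equal differences. Most red genes lie above 0 and most blue genes below 0 on the vertical axis (307 of 585 and 307 of 622 past 2-fold), with smaller groups of 44 and 48 genes on the opposite side.

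Whether the strain difference itself changed between darkness and light was tested as a contrast of contrasts, in which a shift that is equal in both light conditions of a library series drops out. It was called for 3977 genes (43.8%), of which 772 were at least 2-fold more positive in darkness (8.5%) and 789 at least 2-fold more negative (8.69%). There were 2016 positive (22.2%) and 1961 negative (21.6%) calls. Of all calls 50.7% were positive, but 63.4% were when libraries were scaled by their totals alone, which moved the median over all genes to 0.15. The sets of genes at least 2-fold different in darkness were chosen on libraries that are part of this contrast. Their shares of calls are therefore tied to that choice. Among the 585 genes higher in darkness the change was called for 330 (56.4%), and among the 622 lower genes for 226 (36.3%). Without Δ21168 dark replicate 1 these shares were 56.4% of 614 and 44.5% of 724, against 44.6% of all genes tested. The share of the lower genes was then near that of all genes. The 44 genes higher in darkness and lower in light by 2-fold or more had median levels of 10.0 CPM in Δ80186 and 3.40 CPM in Δ21168 in darkness, and 0.765 and 5.43 CPM in light. The 48 with the opposite pattern had 11.8 and 29.4 CPM in darkness and 35.2 and 9.03 CPM in light.

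Among the genes called both in darkness and in this contrast, TrE1235W had the smallest p with a positive change. In darkness it had 96.2, 90.3 and 89.0 CPM in Δ80186 and 60.9, 65.4 and 75.4 CPM in Δ21168, a small step (log2 0.45 ± 0.10 SE, adjusted p = 0.0018). In light Δ21168 was far higher, at 1137 ± 166 CPM (SD, n = 3; edgeR adjusted p = 1.5e-13) against 122 ± 3.30 in Δ80186. The change of the strain difference was 3.67 ± 0.15 on the log2 scale (SE, adjusted p = 2.6e-11).

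TrB1711W had a change of the same sign, with a larger step in darkness and a smaller one in light. It had 211, 199 and 186 CPM in dark Δ80186 and 69.9, 67.6 and 68.9 CPM in dark Δ21168 (log2 1.53 ± 0.06 SE, adjusted p = 1.1e-11). In light the order turned, with 106 ± 2.48 CPM in Δ80186 and 158 ± 11.4 CPM in Δ21168 (SD, n = 3), and the change was 2.11 ± 0.09 (SE, edgeR adjusted p = 5.6e-11). WT had 164 ± 5.24 CPM in darkness and 251 ± 12.9 CPM in light (SD, n = 3).

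Of the genes with a negative change, TrB1563C had 103, 106 and 109 CPM in dark Δ80186 and 43.3, 44.6 and 55.4 CPM in dark Δ21168. The dark difference of 1.14 ± 0.11 (log2, SE; adjusted p = 2.4e-07) grew in light to 5.24 ± 0.15 (adjusted p = 1.3e-14), where Δ80186 had 103 ± 6.37 and Δ21168 2.67 ± 0.80 CPM. TrA1632W took a like course. It had 479, 454 and 441 CPM in dark Δ80186 and 152, 136 and 113 CPM in dark Δ21168 (log2 1.78 ± 0.10 SE, adjusted p = 7.5e-10), and 338 ± 21.4 and 9.52 ± 1.59 CPM in light (SD, 3 libraries each). The changes were −4.10 ± 0.18 and −3.37 ± 0.15 on the log2 scale (SE, edgeR adjusted p = 8.8e-11 and 1e-10). With light, the mean level of TrB1563C in Δ80186 went from 106 to 103 CPM with overlapping libraries, and that of TrA1632W from 458 to 338 CPM with libraries that did not overlap. In Δ21168 both genes were lower in light than in darkness, and in WT the level went from 122 ± 6.10 to 22.7 ± 1.42 CPM for TrB1563C and from 455 ± 29.4 to 117 ± 6.62 CPM for TrA1632W.

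Codes near each other were compared, reading the letter as the chromosome, the number as the order along it and the ending as the strand. The files do not state this reading, but the table has 7 letters and each number from 1 to the highest of its letter occurs once. The share of tested genes called in darkness was 42.1% to 45.9% across the letters, and 44.6% and 43.7% for the endings W and C. At least 2-fold differences were most frequent for letter F (16.2%) and least for letter A (11.9%). Among the 230 tested codes within 25 numbers of the lowest or highest number of a letter, 24 were at least 2-fold higher and 32 lower, 24.3% together, against 13% of the 8849 others. The share called at any fold had the opposite order, with 39.6% of the outer codes and 44.3% of the others. Leaving out Δ21168 replicate 1 gave shares of 23% and 14.5% at 2-fold and 38.7% and 45.5% at any fold. The outer codes were not matched to the others by level, and the part of level was not tested. Of all tested genes from 1 to 10 CPM, 37.4% were called and 24% at 2-fold.

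Adjacent codes were more alike in their difference between the mutants than distant ones, and divergent pairs were the most alike. Across 7805 adjacent tested pairs, which are not independent, the log2 fold changes in darkness correlated with a Pearson's r of 0.161, which dropped to 0.0428 at a distance of 2 numbers and 0.00106 at 10. The r was 0.284 for the 2302 divergent pairs (C then W, with neighbouring starts), 0.18 for the 3179 pairs on the same strand and 0.0184 for the 2324 convergent pairs (W then C). Where both members of a divergent pair were at least 2-fold different, 68 pairs moved in the same direction and 4 in opposite ones, against 89 and 25 on the same strand and 22 and 18 for convergent pairs. Without Δ21168 replicate 1 the r of divergent, same-strand and convergent pairs was 0.282, 0.184 and 0.0262. In the light libraries it was 0.364, 0.192 and 0.0365, in the same order. The strand setting of the counting is not given in the sources used here, and its part in the likeness of neighbours was not tested.

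**Figure D5:**
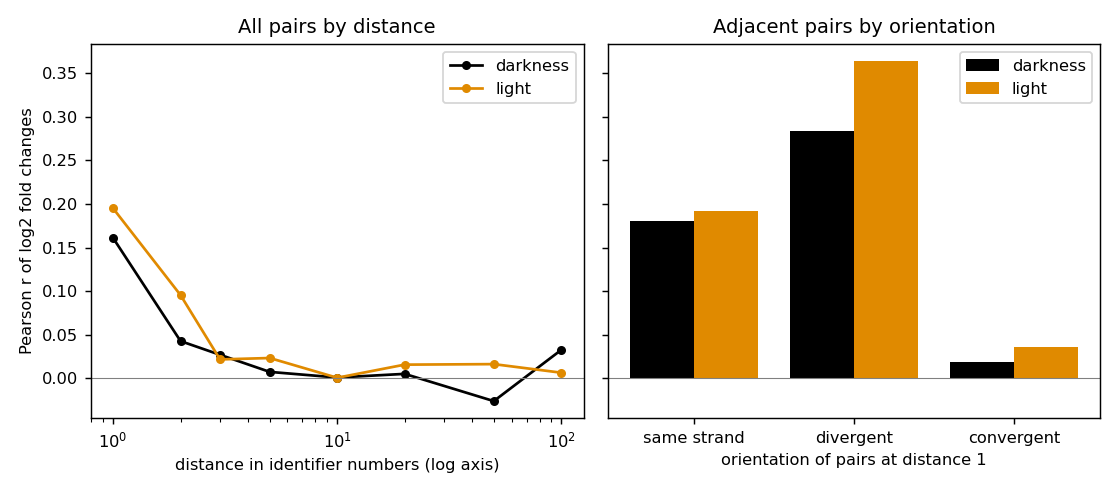
Pearson's r of the log2 fold changes of Δ80186 over Δ21168 between 2 codes (vertical axis, both panels), by their distance in numbers (left, log axis) and, for adjacent codes, by orientation (right); black is darkness and orange is light. The r of adjacent pairs in darkness is 0.161 and is near 0 from a distance of 5 onward, and it is highest for divergent pairs in both light conditions.

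Longer runs were few. There were 3 runs of at least 5 consecutive tested codes that were each at least 2-fold different in the same direction, and 0 of at least 6. The number was 2 without Δ80186 replicate 1 or 3 or Δ21168 replicate 2 or 3, 1 without Δ80186 replicate 2 or when the model held just these 2 groups, and 3, of which 2 were lower, without Δ21168 replicate 1. On letter A, numbers 1529 to 1533, 5 genes were higher in Δ80186, with log2 fold changes between 1.52 and 4.71. They had 7.96 to 97.4 CPM in dark Δ80186, 0.261 to 5.81 CPM in dark Δ21168 and 0.641 to 8.65 CPM in WT, and each had its highest dark mean in Δ80186. The first 3 genes of the run carried the ending C and the last 2 the ending W. In light 3 of them were at 0.113 to 0.527 CPM in Δ80186 and had 0 reads in Δ21168, while the others kept 17.8 and 14.6 CPM in Δ80186. All 5 stayed at least 2-fold higher when any of the 6 dark mutant libraries was left out.

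On letter C, numbers 1100 to 1105, 5 tested genes were higher in Δ80186 with log2 fold changes of 1.004 to 2.17, and in light their differences ranged from −1.40 to 4.70. Between 4 and 5 of them remained past 2-fold with a library left out. They had 8.72 to 374 CPM in dark Δ80186, 1.96 to 137 CPM in dark Δ21168 and 14.2 to 506 CPM in dark WT. Numbers 1101, 1102, 1103 and 1105 had their highest dark mean in WT, and number 1100 in Δ80186. On letter G, numbers 1146 to 1152, 5 tested genes were lower in Δ80186, with log2 fold changes of −1.98 to −1.05. Of these 2 to 4 remained with a library left out, and in light 4 of them were at least 2-fold lower. This run held weakly read genes, with 0.225 to 9.68 CPM in Δ80186 and 0.919 to 20.2 CPM in Δ21168.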

How the data were processed

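Whole-number counts per gene were deposited by the authors, not normalised, with 1 column per library and 10879 rows. Reads were aligned with HISAT2 2.2.1, per the submitters' processing notes. How reads were trimmed, on which build and strand they were counted, and how multiply aligned reads were treated is not given in the sources used here, so reads of overlapping, antisense or near-identical genes could not be told apart. The sample descriptions name the columns, and the titles gave the groups. No gene names were available for the codes (0 found among 9116 RefSeq genes).

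The filter on low counts was edgeR's filterByExpr with the groups (at least 10 counts, 15 in total), which left 9079 genes. A single model in edgeR 4.0.16 (under R 4.3.3) described all 18 libraries by their 6 group means, with TMM scaling, robust dispersion estimates and 12 degrees of freedom left. P-values were adjusted by Benjamini-Hochberg over every gene tested and called under 0.05. SE comes from the fold change and the root of the F statistic and can be smaller than counting error for genes with few reads. Alternatives were DESeq2 1.42.0, limma 3.58.1 (voom), other scalings and filters, fewer groups, a replicate block and left-out libraries.

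At most 2 higher and 2 lower codes were named per comparison: in darkness those with the largest fold and with the highest CPM, among genes that reached 5 CPM in the higher group without overlap of the groups; for the change with light those with the smallest p and at least 10 reads in every library. Comparisons, rules and members were chosen with earlier results of these data known. Replicates differed beyond sampling noise, with a chi-square per degree of freedom of at least 9.2 for the dark libraries.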

Additional observations from a re-analysis of the deposited data

Results flagged for a closer look

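The difference between the mutants was not the same in darkness and in light, by the test of the change itself (edgeR's quasi-likelihood test, Benjamini-Hochberg adjusted p under 0.05), for each of the 8 genes named by rule. For 4 of them this follows from the choice, as they were named by this test. These were TrE1235W with a dark minus light difference of 3.67 on the log2 scale, TrB1711W with 2.11, TrB1563C with −4.10 and TrA1632W with −3.37. The other 4 were named from darkness alone. The dark libraries that named them are also part of the change, so their changes are not independent of the choice. TrE1253C was 1.51 more positive in darkness (adjusted p = 0.019), which did not pass the threshold in 5 of 20 alternatives (adjusted p = 0.41 with limma voom, and 0.055 to 0.095 without Δ21168 dark replicate 1 or 3 or Δ21168 light replicate 2 or 3). Its difference kept its direction in light, with 12.8 ± 0.98 CPM in Δ80186 and 0.653 ± 0.204 CPM in Δ21168 (SD, 3 libraries each). TrC1130C had a change of −1.73 (adjusted p = 0.00024), with 19602 ± 2597 CPM in Δ80186 and 1734 ± 148 CPM in Δ21168 in light. TrC1070C had a change of −3.49 (adjusted p = 0.041), which rests on 1 read in dark Δ80186, is not precise and did not pass in 7 of 20 alternatives, each with 1 library left out (adjusted p = 0.054 to 0.15; Δ80186 dark replicate 1 or 3, Δ80186 light replicate 2, and replicate 1 or 3 of Δ21168 in darkness or in light). TrB1588C had a change of −2.60 (adjusted p = 0.0034) and the opposite order in light, with 12378 ± 144 CPM in Δ80186 against 6026 ± 841 CPM in Δ21168 (log2 1.04 ± 0.42 SE, adjusted p = 0.045). This light difference did not pass when any of the 6 light libraries of the mutants was left out (adjusted p = 0.056 to 0.11), with library totals (adjusted p = 0.075) or with the replicate block (adjusted p = 0.056), while the change passed in all 20 alternatives.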

How the results depend on the processing

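The count of genes called in darkness, 4010, ranged from 2974 to 4056 over the alternatives that kept all libraries and from 3266 to 4115 with 1 library left out, and the count at 2-fold, 1207, from 994 to 1287 and from 1069 to 1338. The lowest counts came from a fit of only the groups compared (2974 calls, of which 2913 were among the 4010) and from limma voom with a variance per group (3097, of which 3079). For light the ranges were 5655 to 5895 and 5186 to 5520, and for the change with light 3613 to 4089 and 3519 to 4048. Scaling by library totals shifted the direction of the light calls, to 2278 higher and 3494 lower in Δ80186, from 2770 and 2909 in the main model. The 8 named genes kept their direction and their side of the threshold in all 136 alternatives run for the comparison each was named in. The number of runs of neighbouring codes moved by over 1.5 times with its setting, from 3 to 10 with at least 4 codes and to 0 with at least 6. With a library left out, 1 to 3 runs of at least 5 were found. Without Δ80186 dark replicate 2 the fitted log2 fold change of TrC1070C went from −8.75 to −10.42 and its change with light from −3.49 to −5.16, and the bounds of the 3 codes without reads in Δ21168 fell without Δ21168 dark replicate 3. The values of gene sets called in the 6 dark mutant libraries alone, or without Δ21168 dark replicate 1, were added after the data were seen. The replicate block gave 3915 calls in darkness, 3856 of them among the 4010 in the same direction. The labels do not state whether equal replicate numbers in the mutants mark paired samples. Deviations of same-numbered libraries correlated at −0.30, −0.016 and −0.15, and those of differently numbered ones at −0.16 to 0.24. Deviations from a mean of 3 are tied to each other, so these values cannot decide on pairing. Depth limits what can be said of weakly read genes: of the 525 genes under 1 CPM 20.6% were called.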
